A study of Mus musculus with 4 samples.

Results

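The 4 mouse genes of the Foxo subfamily, Foxo1, Foxo3, Foxo4 and Foxo6, were examined in Foxp1 ChIP-seq data from basal and luminal mammary epithelial cells. They were taken by symbol from a table of 24548 genes, and all 4 had enough reads to be tested. ChIP-seq recovers the DNA bound by a protein, here the forkhead factor Foxp1, and input is chromatin sequenced without an antibody. The series holds 1 ChIP library and 1 input library from basal cells, which form the outer contractile layer of the ducts, and the same pair from luminal cells, which line the ducts. Both cell types came from untreated wild-type FVB/N females aged 10 to 12 weeks. The sources used here do not give the way the cells were isolated or the number of mice behind a library. None of these libraries was made with a control antibody.

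Foxo proteins are forkhead transcription factors at the end of the insulin and IGF pathway. When the receptors signal through PI3K, the kinase AKT phosphorylates Foxo proteins, 14-3-3 proteins bind them, and they leave the nucleus. When signalling is low they stay on DNA and activate genes of cell cycle arrest, apoptosis, stress defence, autophagy and metabolism. Foxp1 has a forkhead DNA-binding domain as well but acts mainly as a repressor, and in mouse T cells it has been shown to compete with Foxo1 at an Il7r regulatory site. The values below are reads at the Foxo genes in ChIP for Foxp1; they measure neither Foxo protein nor Foxo expression.

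No source states which part of a gene was counted, so this was read from the inputs. Among autosomal genes over 15000 bp whose other side was free of genes for 10000 bp, the reads summed over both inputs were fewer where the start of a divergently transcribed neighbour was close. With such a start within 1000 bp, 247 genes had a median of 60 reads, and the 16 genes with one 1000 to 2000 bp away had 31. The median was 234 for 21 genes at 3000 to 4000 bp, 409.5 for 12 genes at 5000 to 6000 bp and 381 for 773 genes beyond 20000 bp. The 93 genes whose end lay within 1000 bp of the end of a convergent neighbour had a median of 421. The counts of the Foxo genes are therefore taken here to refer to a stretch around each gene start. The genes Foxo1 and Foxo3 are 81773 and 94851 bp long, so that most of each gene lies outside such a stretch.

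**Figure D1:**
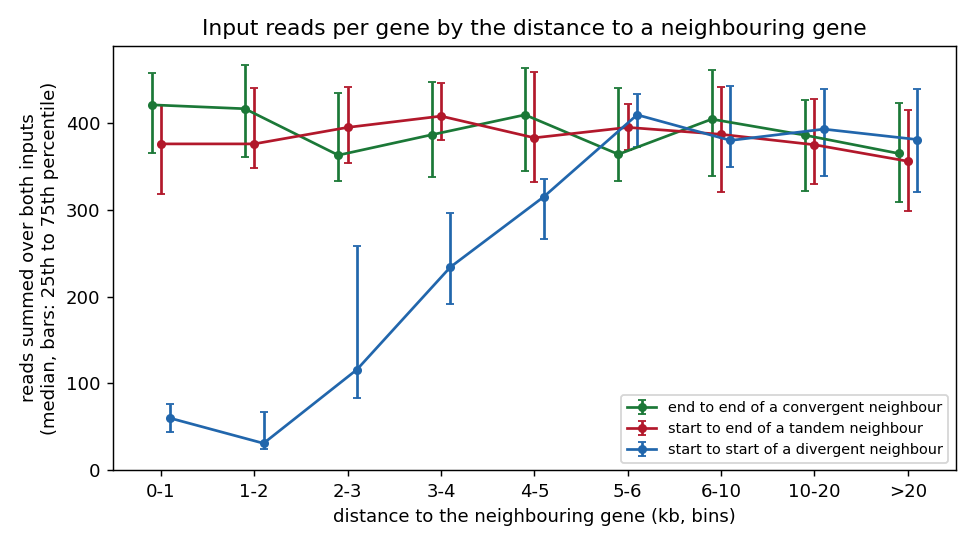
Reads summed over both inputs per gene (median, bars from the 25th to the 75th percentile) by distance to a neighbouring gene in kb. The blue line, distance between divergent starts, lies at 60 and 31 reads in the first bins, rises to 409.5 at 5000 to 6000 bp and ends at 381, while the medians on the lines for distances to gene ends stay between 356 and 421.

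The promoters of Foxo1 and Foxo3, the 2 of 4 members matched in the RefSeq promoter table, are shown because they lie at the gene starts to which the counts refer. Both run from 250 bases before to 50 after the gene start in RefSeq (GRCm38.p6, the assembly of mm10), and CpG dinucleotides are in capitals. Foxo1 is at chr3:52268087-52268386 on the plus strand and Foxo3 at chr10:42276646-42276945 on the minus strand.
Foxo1: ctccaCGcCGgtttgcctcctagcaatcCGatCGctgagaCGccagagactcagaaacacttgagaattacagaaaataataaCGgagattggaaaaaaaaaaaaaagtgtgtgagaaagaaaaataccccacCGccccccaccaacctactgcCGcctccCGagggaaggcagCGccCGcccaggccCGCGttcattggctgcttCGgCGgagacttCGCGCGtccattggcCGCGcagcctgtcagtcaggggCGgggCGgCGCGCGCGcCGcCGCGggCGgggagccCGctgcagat
Foxo3: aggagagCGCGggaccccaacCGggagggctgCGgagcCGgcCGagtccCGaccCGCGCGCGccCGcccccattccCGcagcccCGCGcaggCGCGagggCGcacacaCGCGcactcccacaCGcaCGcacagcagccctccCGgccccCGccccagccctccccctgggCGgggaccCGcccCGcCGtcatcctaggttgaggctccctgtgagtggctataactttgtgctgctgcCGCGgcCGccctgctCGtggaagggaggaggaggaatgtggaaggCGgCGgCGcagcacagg
The Foxo3 window is 75% G and C with 35 CpG dinucleotides, and the Foxo1 window is 61.3% G and C with 31. The median of 32851 RefSeq promoters of the same length is 52.7% with 7 CpG dinucleotides. Neither window holds the forkhead motif GTAAACA, its core TAAACA or the insulin response sequence CAAAACAA on either strand. These motifs occur in 3.65%, 13.4% and 2.51% of the 32851 promoters, GTAAACA being counted with its core as well. This says only that these letters are not in these windows.

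Foxo3 (Entrez gene 56484, protein-coding, chromosome 10, 42181845 to 42276695) encodes a factor known for driving cell cycle exit and apoptosis. It was the single member of 4 enriched in ChIP, and it was enriched in both cell types. In basal cells 458 ChIP reads stood against 199 input reads, and in luminal cells 351 stood against 283. Scaled to CPM, the count relative to the library's TMM-scaled total, the basal values were 124 and 63.6 and the luminal values 112 and 66.3, so that both ChIP libraries lay above both inputs. ChIP over input was 1.95-fold in basal cells (99% counting interval 1.57 to 2.45) and 1.69-fold in luminal cells (1.37 to 2.08), or log2 0.97 and 0.76.

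The call rule asked for a change of at least 1.5-fold whose 99% interval left out 1. Of the 4 Foxo genes, 1 was called higher and 0 lower in each cell type. In basal ChIP 4.24% of the 23128 tested genes were called higher and 4.06% lower, 8.3% in all. In luminal ChIP these were 1.5%, 2.13% and 3.63%. Foxo3 ranked 209 of 23128 by its basal ratio and 232 by its luminal ratio. The members' median log2 ratio was 0.12 in basal and 0.13 in luminal cells, beside -0.01 and -0.0024 over all tested genes. Foxo3 was among 108 genes called higher in both cell types, and 27 other genes were at or above it in both. These held transcription factor genes such as Foxp1, Hes1, Junb, Klf6 and Klf9. They also held noncoding RNA genes such as Rn45s, Snora33, Mir17, Mir21a, Mir6935 and Neat1, and genes of neither kind. The share of these kinds among all tested genes was not counted. The balance of higher and lower calls over all genes moved with the scaling. It was 981 to 939 in basal and 347 to 492 in luminal ChIP, but 698 to 1311 and 268 to 604 with total counts as scale. Centred on olfactory receptor genes, which serve smell in sensory neurons, it was 2993 to 237 and 576 to 303. The call at Foxo3 held under both scalings in both cell types. Without replicates no value here is checked against the spread between mice, and all intervals cover counting error only.

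**Figure D2:**
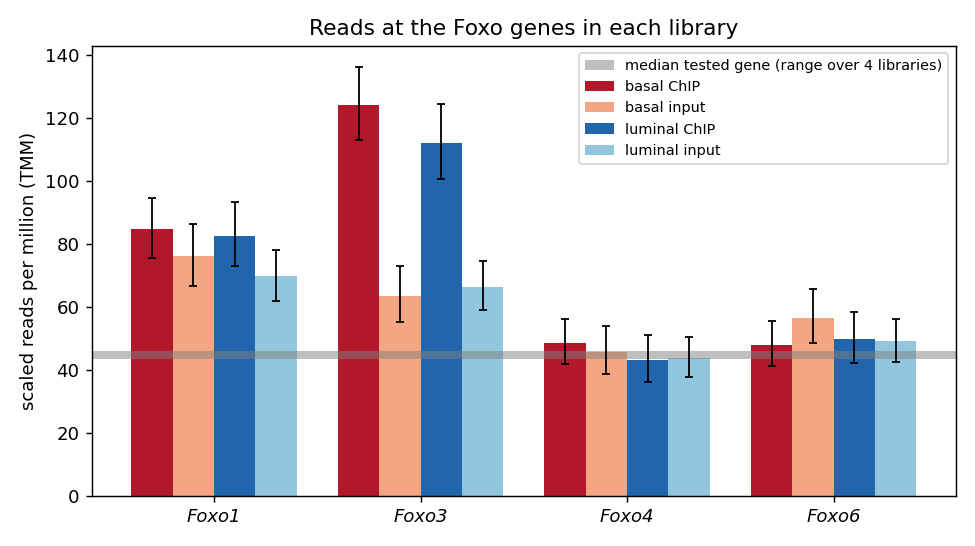
Scaled CPM at the 4 Foxo genes in each of the 4 libraries, with 95% Poisson counting intervals; the grey band is the median tested gene (43.4 to 46.0). Foxo3 stands at 124 and 112 in the ChIP libraries over 63.6 and 66.3 in the inputs, while Foxo1 is high in all 4.

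Foxo1, a mediator of insulin action on glucose production in liver (Entrez gene 56458, chromosome 3, 52268337 to 52350109), had many reads in ChIP and in input alike. In basal cells 312 ChIP reads stood against 238 input reads, and in luminal cells 259 stood against 297. The CPM values were 84.6 and 76.0 in basal and 82.6 and 69.6 in luminal cells, where the median tested gene had between 43.4 and 46.0. Its basal ChIP level exceeded that of 95.8% of tested genes, but its basal input level exceeded that of 99.4%. ChIP over input was 1.11-fold in basal cells (0.889 to 1.40) and 1.19-fold in luminal cells (0.949 to 1.48), neither of which was called. Foxo1 was thus high in reads with and without the antibody.

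Foxo4, an X-linked member (Entrez gene 54601, chromosome X, 101254261 to 101260873), had 179 ChIP and 143 input reads in basal cells and 135 and 186 in luminal cells. Its CPM values were 48.5, 45.7, 43.1 and 43.6 in the same order. These lay above the medians of the 963 tested genes of chromosome X, which were between 36.4 and 40.2. ChIP over input was 1.06-fold in basal cells (0.792 to 1.43) and 0.988-fold in luminal cells (0.732 to 1.33), and was not called.

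Foxo6, known mainly from brain and unusual among Foxo proteins in that it is not readily exported from the nucleus (Entrez gene 329934, chromosome 4, 120267078 to 120287261), had 177 reads in each basal library. It had 156 in luminal ChIP and 209 in luminal input. The CPM values were 48.0 and 56.5 in basal and 49.8 and 49.0 in luminal cells, the basal input being the highest. The ratio was 0.849 in basal cells (0.642 to 1.12) and 1.02 in luminal cells (0.768 to 1.34), and neither was called. The basal intervals of Foxo1, Foxo4 and Foxo6 end at 1.40, 1.43 and 1.12 and so do not reach the basal ratio of Foxo3.

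**Figure D3:**
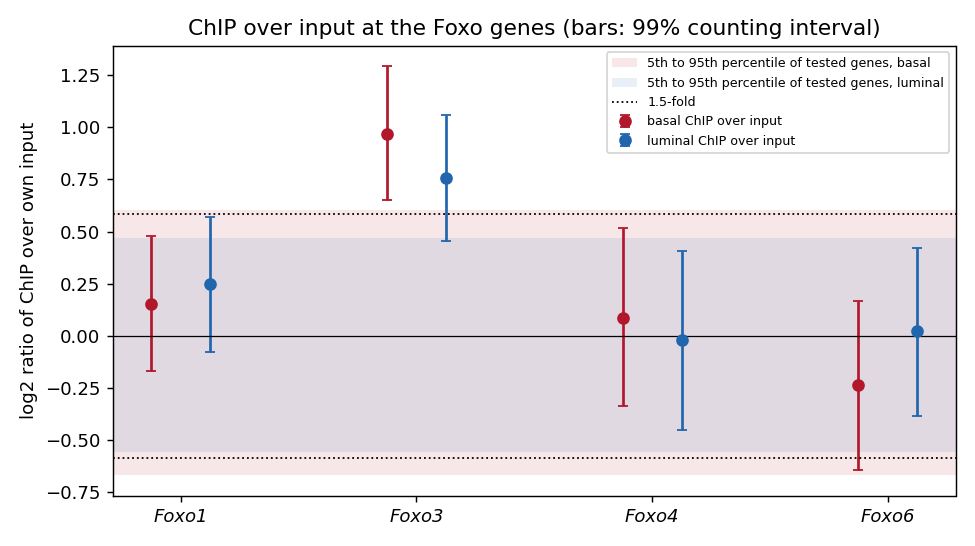
Log2 ratio of ChIP over own input at the Foxo genes with 99% counting intervals, in basal (red) and luminal cells (blue); shaded bands hold the 5th to the 95th percentile of 23128 tested genes. The Foxo3 points, 0.97 and 0.76, lie above the bands, which end at 0.60 and 0.47, and the points of the other members lie inside them.

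A comparison of the members within each library does not depend on how libraries are scaled. Foxo3 took 40.7% of the 1126 reads at Foxo genes in basal ChIP (95% exact interval 37.8 to 43.6) and 26.3% of the 757 in basal input (23.2 to 29.6). In luminal cells its share was 39.0% of 901 reads in ChIP (35.8 to 42.2) and 29.0% of 975 in input (26.2 to 32.0). In each cell type the Foxo3 intervals of ChIP and input did not overlap. The shares in a library add up to the whole, so that a larger Foxo3 share lowers those of the other members. The share of Foxo6 was 15.7% in basal ChIP (13.6 to 18.0) and 23.4% in basal input (20.4 to 26.6). In luminal cells it was 17.3% and 21.4%. Foxo1 had 27.7% in basal ChIP and 31.4% in basal input, and 28.7% and 30.5% in luminal cells. Foxo4 had 15.9% and 18.9% in basal and 15.0% and 19.1% in luminal cells. Of the 6 pairs of members, 3 differed in ChIP over input in basal cells and 3 in luminal cells by a 99% counting interval, each of them a pair with Foxo3. Foxo3 exceeded Foxo6 by log2 1.20 (0.70 to 1.71) in basal and 0.73 (0.24 to 1.22) in luminal cells. It exceeded Foxo4 by 0.88 (0.36 to 1.40) and 0.77 (0.26 to 1.28). Foxo1 lay below Foxo3 by -0.81 (-1.26 to -0.36) in basal and by -0.51 (-0.94 to -0.07) in luminal cells. Among Foxo1, Foxo4 and Foxo6 no pair differed, the widest basal difference being 0.39 between Foxo1 and Foxo6 (-0.12 to 0.90). The pair intervals cover counting error only and were not widened to the spread of the olfactory receptors. The variance of those receptors was 2.28 times that of counting in basal and 2.12 in luminal cells. Of the pairs with Foxo3, the luminal one with Foxo1 had the interval ending nearest to 0, at -0.07.

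Whether enrichment differed between the cell types was taken as the basal minus the luminal log2 ratio. None of the 4 Foxo genes was called, where 3.72% of tested genes were called higher in basal cells and 4.16% lower, 7.89% in all. These calls split 861 to 963, and 2007 to 415 when centred on olfactory receptors. The difference was 0.21 for Foxo3 (99% interval -0.22 to 0.64), -0.09 for Foxo1 (-0.54 to 0.36), 0.10 for Foxo4 (-0.49 to 0.69) and -0.26 for Foxo6 (-0.82 to 0.30). For Foxo3 the interval spans 0.856-fold to 1.56-fold, and a value without a call does not show that the cell types were alike. Between the inputs, which hold no antibody signal, Foxo genes differed by 0.958-fold to 1.15-fold, and none was called, where 0.709% of tested genes were called higher and 0.463% lower, 1.17% in all. Between the ChIP libraries directly the basal level of Foxo3 was 1.11 times the luminal one (0.922 to 1.34). No member was called there, beside 4.05% of tested genes called higher and 3.98% lower, 8.03% in all. A higher share of cells with bound DNA and stronger binding in each cell cannot be told apart in such libraries.

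**Figure D4:**
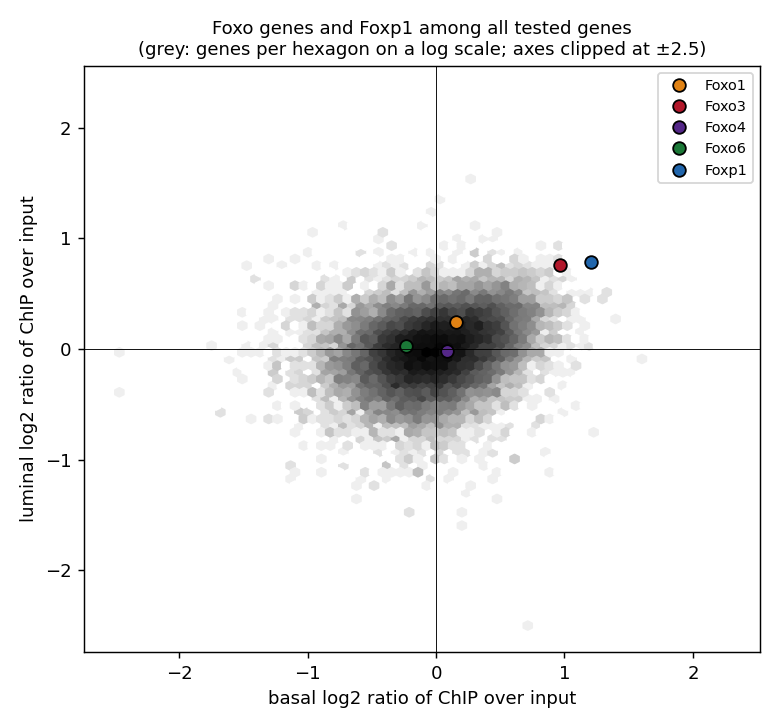
Basal against luminal log2 ratio of ChIP over input for all 23128 tested genes (grey, genes per hexagon), with the Foxo genes and Foxp1 marked. Foxo3 (0.97, 0.76) and Foxp1 (1.20, 0.78) lie at the upper right edge, and Foxo1, Foxo4 and Foxo6 lie near the centre.

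Base composition moved with the ratio across genes. When tested genes with a RefSeq promoter were divided by promoter G and C content into 10 parts of 1649 to 1850 genes, the median basal log2 ratio was -0.21 in the lowest part and 0.20 in the highest. The share called higher in basal ChIP was 0.172% in the lowest and 8.89% in the highest; in luminal ChIP it was 0.459% and 3.37%. Foxo3 was in the highest part, and Foxo1 in the seventh, where 4.99% were called higher in basal and 2.15% in luminal ChIP. Against the median of its own part, Foxo3 stood at log2 0.77 in basal and 0.65 in luminal cells, above 97.9% and 98.2% of the 1722 genes there. With ratios centred on these medians, an alternative added after seeing the data, Foxo3 was called in both cell types. The part of base composition in its ratio was not tested. Foxo1 stood at 0.07 and 0.20 above its part.

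The nearest 2 counted genes on each side of each member were read as well. Those of Foxo3 lie 35885 bp away or more. All distances here are gaps between gene bodies, not between the gene starts to which the counts are taken to refer. None of the 3 tested neighbours of Foxo3 was called in either cell type. Afg1l, 35885 bp away, stood at 1.15-fold in basal (0.877 to 1.52) and 1.26-fold in luminal cells (0.997 to 1.59). Snx3, a sorting nexin, stood at 1.31-fold (1.02 to 1.68) and 1.10-fold (0.866 to 1.40). Armc2, 163462 bp away on the other side, stood at 1.01-fold (0.784 to 1.31) and 1.07-fold (0.833 to 1.36). The pseudogene Gm9855 between Armc2 and Foxo3 had 0 reads in all 4 libraries. Over all members 15 of 16 neighbours were tested, of which basal ChIP was called higher at 1 and lower at 1 and luminal ChIP at 0. The shares called over all tested genes were 4.24% higher and 4.06% lower in basal and 1.5% and 2.13% in luminal ChIP. At such shares, 3 genes without a call say little. The neighbour called higher was Maml3, a coactivator of Notch signalling 163017 bp from Foxo1, at 1.80-fold (1.38 to 2.35) on 309 against 146 reads. Foxo1, with 1.11-fold, lay below this neighbour. The neighbour called lower was Edn2, an endothelin gene near Foxo6, at 0.665-fold (0.475 to 0.926). That call was lost with DESeq2 size factors, with olfactory receptors as centre and with intervals widened to the spread of those receptors. Near Foxo4, Gm614 at 499 bp and Il2rg at 3511 bp were not called. Snx12, 31677 bp from Foxo4, was called in the difference between cell types at log2 0.64, but not with both inputs summed as background.

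**Figure D5:**
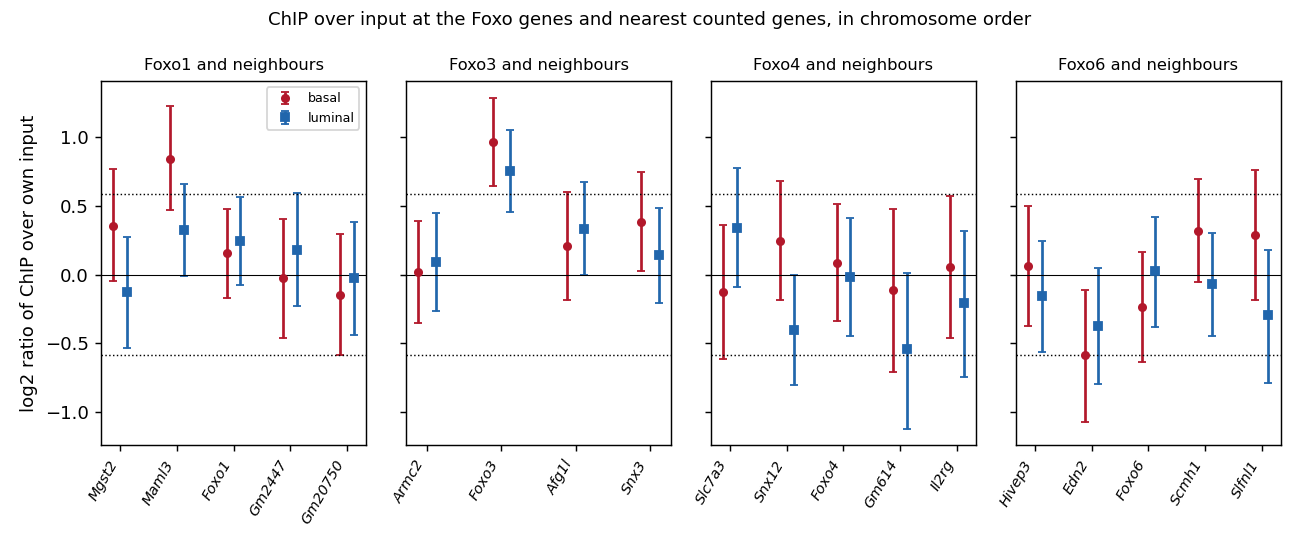
Log2 ratio of ChIP over own input with 99% counting intervals for each Foxo gene and its tested neighbours in chromosome order, basal in red and luminal in blue; dotted lines mark 1.5-fold. Foxo3 stands above its neighbours in both cell types, and Maml3 next to Foxo1 reaches 0.85 in basal cells.

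The genes whose pattern over the 4 libraries was most like each member were found by the distance between scaled log2 counts centred on each gene's mean, among 16085 genes with at least 400 reads. Plekhg2, a guanine nucleotide exchange factor, was nearest to Foxo3 (distance 0.05), with 478 and 206 reads in basal and 380 and 294 in luminal ChIP and input. Pom121, a nuclear pore protein, and Rmnd5a, a subunit of an E3 ligase complex, followed at 0.05 and 0.10. For Foxo4 the nearest were Esp23, Olfr143 and Wdr5, and for Foxo6 they were Olfr1281, Krt33b and Klhl34, at distances of 0.00837 to 0.0239. Fam160b2, Pqlc3 and Osgin2 were nearest to Foxo1, at 0.00895 to 0.0139. The distance used the same counts as the ratios, so that these genes share the ratios of their member by choice.

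Other forkhead genes give the family background. Among the 4 Foxp genes, 1 was called higher in each cell type: Foxp1 itself, at 2.30-fold in basal and 1.72-fold in luminal cells. With olfactory receptors as centre, 2 were called higher in basal cells, where 12.9% of all tested genes were. Of 34 other forkhead genes tested, 2 (5.88%) passed as higher and 3 (8.82%) as lower in basal ChIP, beside 4.24% and 4.06% of all tested genes; the median log2 ratio was 0.04. With olfactory receptors as centre these counts were 5 (14.7%) and 1 (2.94%), where 12.9% and 1.02% of all tested genes were called. In luminal ChIP 1 was called higher and 1 lower, 2.94% each, beside 1.5% and 2.13% of all tested genes. The luminal median was 0.09. Foxk1, a repressor of autophagy genes, stood at 1.83-fold in basal ChIP on 285 against 132 reads. Foxj1, the regulator of motile cilia, stood at log2 0.61 there, a call lost with both inputs summed. Foxb2 (-0.90), Foxs1 (-0.68) and Foxr2 (-0.65) were lower; those at Foxs1 and Foxr2 were lost with olfactory receptors as centre. In luminal ChIP Foxc1 stood at log2 0.67 on 278 against 237 reads, and Foxl2 was lower on 9 against 34, a call lost with the widened interval. In the difference between cell types Foxj1 (0.77) and Foxk1 (0.76) were called higher in basal cells and Foxb2 (-1.01), Foxs1 (-0.90) and Foxd4 (-0.73) lower. These are 5.88% and 8.82% of the 34, beside 3.72% and 4.16% of all tested genes. With the widened interval, Foxb2 alone of these 5 was called.

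Of 20 genes that act upstream of Foxo proteins, from the insulin and IGF receptors to AKT, basal ChIP was called higher at 2 and lower at 1, that is 10% and 5%, beside 4.24% and 4.06% of all tested genes. With olfactory receptors as centre these counts were 6 and 0, where 12.9% and 1.02% of all tested genes were called. In the difference between cell types 2 were called higher and 1 lower, beside 3.72% and 4.16% of all tested genes. With that centre these were 4 and 1, beside 8.68% and 1.79%. Their median log2 ratios were 0.22 in basal and 0.03 in luminal cells. Igf1r, the IGF receptor, had 494 ChIP and 211 input reads in basal cells, 1.99-fold (1.61 to 2.47), and 252 and 296 in luminal cells. Its difference between cell types, 0.78, was called. Rictor, a subunit of the complex that phosphorylates AKT, was called higher in basal ChIP at log2 0.70, and Pik3ca, a catalytic subunit of PI3K, lower at -0.59. Both were also called in the difference (0.62 and -0.76), and these 4 calls were lost with the inputs summed.

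The 14-3-3 proteins hold phosphorylated Foxo proteins in the cytoplasm, and Xpo1 exports them. Of these 8 genes, 2 were called higher in basal ChIP and 0 in luminal ChIP, with median log2 ratios of 0.53 and 0.20. With olfactory receptors as centre 6 were called in basal and 1 in luminal ChIP, beside 12.9% and 2.49% of all tested genes in place of 4.24% and 1.5%. Sfn, the epithelial 14-3-3 protein, had 630 ChIP and 214 input reads in basal cells, log2 1.32 (1.03 to 1.62), and 287 and 269 in luminal cells. Its difference between cell types, 0.78, was called. Ywhag stood at 0.75 in basal cells, with a difference of 0.59 that was lost with the inputs summed. Of 18 tested enzymes that modify Foxo proteins, 2 were called higher in basal ChIP and 0 in luminal ChIP, with medians of 0.24 and 0.06. With olfactory receptors as centre the counts were 6 and 1, beside 12.9% and 2.49% of all tested genes. With total counts as scale they were 1 and 0, beside 3.02% and 1.16%. The 2 genes were the acetyltransferase gene Crebbp (0.79) and the deubiquitinase gene Usp7 (0.60, with a called difference of 0.76). Both Usp7 calls were lost with the inputs summed.

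Known targets of Foxo proteins were counted in 6 groups. Of 49 targets, basal ChIP was called higher at 11 (22.4%) and lower at 1 (2.04%), beside 4.24% and 4.06% of all tested genes. In luminal ChIP 3 (6.12%) were called higher and 1 lower, beside 1.5% and 2.13%. Their median log2 ratios were 0.22 and 0.12. In the difference between cell types 5 (10.2%) were called higher in basal cells and 2 (4.08%) lower, beside 3.72% and 4.16%. These counts moved with the processing. With olfactory receptors as centre, basal ChIP was called higher at 18 targets (36.7%) and lower at 0, beside 12.9% and 1.02% of all tested genes. Luminal ChIP was then called higher at 7 (14.3%) and lower at 0, beside 2.49% and 1.31%. The difference then had 12 (24.5%) higher and 1 (2.04%) lower, beside 8.68% and 1.79%. At a 2-fold threshold 4 were called higher in basal ChIP, 2 in luminal ChIP and 0 in the difference. The shares over all tested genes were then 0.553%, 0.203% and 0.575%. With the inputs summed, 5 (10.2%) were called higher in luminal ChIP, beside 1.77%. The difference then had 1 higher and 1 lower, 2.04% each, beside 4.05% and 3.98%. This list was chosen with earlier results of these data known. Promoter base composition was not taken into account for this or the other lists. Over the 10 parts by promoter G and C content, the share of genes called higher ran from 0.172% to 8.89% in basal ChIP. In luminal ChIP it ran from 0.459% to 3.37%. The part of base composition in the target counts was not tested.

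Over all tested genes 4.24% were called higher in basal ChIP and 1.5% in luminal ChIP. In the cell cycle group 2 of 9 targets were called higher in basal ChIP. Cdkn1b, the p27 inhibitor, had 358 ChIP and 163 input reads there, 1.86-fold (1.46 to 2.40), and 220 and 295 in luminal cells. Its difference of 0.87 was lost with the inputs summed. Ccng2, an atypical cyclin, stood at log2 0.68 in basal ChIP. Cdkn1a, the p21 inhibitor, was lower in luminal ChIP (-0.60) and Rbl2, a pocket protein, in the difference (-0.63), both lost with the inputs summed. In the apoptosis group 2 of 6 were called higher in basal ChIP and 0 in luminal ChIP. Bcl2l11, which encodes Bim, stood at 2.13-fold (1.72 to 2.65) on 515 against 205 reads, and Bbc3, which encodes Puma, at 1.87-fold (1.46 to 2.42) on 344 against 156. Of 6 oxidative stress genes 1 was called in basal ChIP, Txnip at log2 0.64, which was lost with the inputs summed.

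In the metabolism group basal ChIP was called higher at 2 of 9 targets and lower at 1, beside 4.24% and 4.06% of all tested genes. Pdk4, a kinase that inhibits pyruvate dehydrogenase, had 433 ChIP and 163 input reads there, 2.25-fold (1.78 to 2.88), and 239 and 280 in luminal cells. Its difference of 0.95 was called. Trib1, a pseudokinase, stood at log2 1.44 in basal and 0.71 in luminal ChIP, both called, as was its difference of 0.73, which was lost with the inputs summed. Pck1, an enzyme of glucose production, was lower in basal ChIP (-0.69) and in the difference (-0.94), both lost with the widened interval. Of 12 genes of autophagy and protein breakdown 1 was called in basal ChIP, the lipid kinase gene Pik3c3 (0.62), which was also called in the difference (0.77), as was the mitophagy receptor gene Bnip3 (0.61). These 3 calls were lost with the inputs summed.

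Of 7 targets that act in transcription and signalling, 3 were called higher in basal ChIP and 2 in luminal ChIP. The shares over all tested genes were 4.24% and 1.5%. Klf6, a zinc finger factor, had 271 ChIP and 108 input reads in basal cells and 294 and 169 in luminal cells, log2 1.09 and 1.24. Klf4, of the same family, stood at 0.76 and 1.06. Cited2, a coactivator, was called in basal ChIP (0.90) and stood at 0.57 in luminal ChIP. Il7r, whose regulatory site Foxp1 and Foxo1 share in mouse T cells, had 193 and 157 reads in basal cells and 135 and 240 in luminal cells, log2 0.06 and -0.39, and was not called.

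Reads counted over all genes came to 3772902 and 3080114 for basal ChIP and input and to 4201459 for luminal input, with 3163948 for luminal ChIP. Cell type markers were counted too, although a ChIP ratio is not expression. Of 8 basal markers, 2 were called higher in basal and 0 in luminal ChIP. Of 10 luminal markers, 0 were called higher in basal and 2 in luminal ChIP. Of 5 fibroblast, 4 endothelial, 5 leukocyte and 4 adipocyte markers, 0 were called higher in either. Lower calls fell on 1 fibroblast, 1 endothelial and 1 leukocyte marker in basal ChIP and on 1 adipocyte marker in luminal ChIP. In the difference between cell types 4 basal markers were called higher in basal cells, and 1 luminal and 1 fibroblast marker lower. The shares over all tested genes were 4.24% higher and 4.06% lower in basal ChIP, 1.5% and 2.13% in luminal ChIP, and 3.72% and 4.16% in the difference. Between the inputs 1 basal marker was called higher in basal cells and 1 luminal marker lower, beside 0.709% and 0.463% of all tested genes. Between the ChIP libraries 6 basal markers were called higher and 3 luminal markers lower, beside 4.05% and 3.98%. No other marker was called in these comparisons.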

How the data were processed

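ChIP used a kit (labels' protocols), and libraries were sequenced as single-end reads of 75 to 85 bp. The authors deposited raw counts per gene, made with featureCounts on build mm10 per the submitters' processing notes. For the aligner, the counted part of a gene and duplicate reads, the sources used here say nothing. The files per sample and the series table held equal counts. Testing took a minimum of 40 counts summed over the libraries (23128 of 24548 genes). Positions came from RefSeq GRCm38.p6 for 24480 genes.

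Counts were scaled with TMM factors (edgeR 4.0.16, R 4.3.3). Each group is 1 library, so there is no test and no p-value. Ratios have exact Clopper-Pearson 99% intervals. Differences between cell types or members have normal 99% intervals from counts plus 0.5. Copies made by PCR are not independent molecules, which the intervals ignore. The calculation was tested on simulated counts with counting error only, which is a smaller spread than the olfactory receptors showed. There a true 1.5-fold change was called at 42% of 50 genes in the basal and 56% of 50 in the luminal setting. Python 3.11.15, numpy 2.4.6, pandas 2.3.3, scipy 1.17.1 and matplotlib 3.10.9 were used.

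The alternatives tried were scaling by total counts or by DESeq2 1.42.0 size factors, centring on 1108 olfactory receptor genes, summing the inputs, widening intervals by the spread of those receptors, a 2-fold threshold, a 95% interval, no filter, and 0.5 added to every count. Centring by promoter base composition was added after seeing the data. The members and lists were chosen with earlier results of these data known. The text names the members, the nearest 2 counted genes on each side, the list genes called in a comparison, and the 3 genes nearest in pattern. Il7r, Hes1, Junb, Klf9, Rn45s, Snora33, Mir17, Mir21a, Mir6935 and Neat1 were named after their values were seen. Proteins were not analysed here. The luminal calls among the genes upstream of Foxo proteins are not reported here.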

Additional observations from a re-analysis of the deposited data

Results flagged for a closer look

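The ratio of ChIP over input had opposite signs in the 2 cell types for Foxo4 and Foxo6. Foxo4 stood at log2 0.087 in basal and -0.018 in luminal cells, and Foxo6 at -0.24 in basal and 0.022 in luminal cells. With 1 library per group the difference was not tested; all of these 99% counting intervals include 0, as do those of the differences between cell types.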

How the results depend on the processing

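Of 112 readings of the Foxo ratios and differences under the alternatives, 110 stayed on the same side of the call threshold. The other 2 are the Foxo3 ratios at a 2-fold threshold, where 0.97 in basal and 0.76 in luminal cells no longer passed. There 0 Foxo genes were called in place of 1 in each cell type. The 2-fold threshold and the settings with another interval width left the values themselves unchanged. For a result without a call, the 2-fold threshold and the widened interval could not produce one. Those agreements were fixed in advance and are no check. Across alternatives Foxo3 ranged from 0.77 to 1.18 in basal and from 0.65 to 0.82 in luminal cells, the lowest with promoter base composition as centre and the highest with olfactory receptors as centre. With intervals widened to the variance of the olfactory receptors, 2.28 times that of counting in basal and 2.12 in luminal cells, Foxo3 kept its call, with lower bounds of 0.49 and 0.32. With the receptors as centre, values of all genes rose by 0.21 in basal and 0.068 in luminal cells. The sign of Foxo4 and Foxo6 in luminal cells depended on the setting, with ranges of -0.05 to 0.05 and -0.07 to 0.09, as did that of Foxo1 in the difference between cell types (-0.11 to 0.05). Why these values moved was not tested. Over all genes the basal calls were 1920, but 3230 with the receptors as centre, 1114 with the widened interval and 350 at 2-fold. The luminal calls were 839, but 404 with the widened interval and 179 at 2-fold. In the difference between cell types they were 1824, but 336 with the widened interval and 372 at 2-fold. No paired analysis was possible because each group has 1 library. Depth limits the members with fewest reads most: the 99% interval of the Foxo4 difference spans 0.713-fold to 1.62-fold.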
